A study of Homo sapiens with 6 samples.

Results

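The Sprouty genes SPRY1, SPRY2 and SPRY4, the Spred genes SPRED1, SPRED2 and SPRED3, and the PEA3 ETS genes ETV1, ETV4 and ETV5 were followed from human embryonic stem cells (hESCs) to neuromesodermal progenitor-like (NMP-L) cells. These 9 genes were chosen by family, among 27672 genes in the RNA-seq table. All 9 were found, and all passed the filter on low counts that left 15517 genes for testing. Both groups came from H9, a single human embryonic stem cell line, with 3 biological replicates each. The hESCs were collected at day 0, labelled untreated, from feeder-free cultures in DEF medium on fibronectin with 30 ng/ml bFGF (an FGF ligand) and 10 ng/ml Noggin (a BMP antagonist). NMP-L cells had spent 3 days in N2/B27-based medium with CHIR99021 at 3 µM, which activates Wnt signalling, and bFGF at 20 ng/ml. The NMP-L labels do not name Noggin. The paper's Methods add BMP and TGFβ inhibitors, Noggin among them, from day 2 to day 4, so the NMP-L cells may have had them. The medium, the Wnt activator, the bFGF dose and the day differ between the groups, and Noggin and TGFβ inhibition may differ. Their parts in any difference cannot be told apart.

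Sprouty and Spred proteins are feedback inhibitors of receptor tyrosine kinase signalling. FGF receptors activate RAS, RAF, MEK and then ERK1/2, and ERK activity in turn raises transcription of many of the genes that restrain it. Sprouty proteins act between receptor and RAF, and Spred proteins bring the RAS inhibitor neurofibromin to the membrane. ETV1, ETV4 and ETV5 are transcription factors whose genes are widely used as readouts of FGF signalling, and the repressor CIC holds them down when ERK is inactive. In the embryo, FGF and Wnt signalling together maintain the neuromesodermal progenitors that feed the growing spinal cord and paraxial mesoderm.

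The 5′-most annotated promoter windows of 4 members that differed between the groups and of SPRY2, which did not pass the threshold, are shown because ETS factors, PEA3 proteins among them, bind sites built on the core GGAA. Each window holds 250 bases before and 50 bases after a RefSeq start site in GRCh38.p14, printed 5′ to 3′ on the strand of the gene, and 7 of the 9 members had one. ETV4 and ETV5 did not have one in the table used. In the first 4 windows capitals mark GGAA or its reverse complement TTCC. In the ETV1 window capitals mark TGAATGGA, one form of the octamer bound by CIC. The windows lie at chr4:123396545-123396844 on the plus strand (SPRY1), and on the minus strand at chr5:142324198-142324497 (SPRY4), chr13:80341077-80341376 (SPRY2), chr2:65432550-65432849 (SPRED2) and chr7:13991376-13991675 (ETV1).
SPRY1: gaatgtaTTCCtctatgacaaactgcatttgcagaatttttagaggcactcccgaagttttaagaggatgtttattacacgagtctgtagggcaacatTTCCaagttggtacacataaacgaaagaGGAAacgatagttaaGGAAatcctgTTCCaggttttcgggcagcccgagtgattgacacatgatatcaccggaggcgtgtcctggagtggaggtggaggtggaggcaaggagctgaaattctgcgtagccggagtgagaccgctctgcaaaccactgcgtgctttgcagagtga
SPRY4: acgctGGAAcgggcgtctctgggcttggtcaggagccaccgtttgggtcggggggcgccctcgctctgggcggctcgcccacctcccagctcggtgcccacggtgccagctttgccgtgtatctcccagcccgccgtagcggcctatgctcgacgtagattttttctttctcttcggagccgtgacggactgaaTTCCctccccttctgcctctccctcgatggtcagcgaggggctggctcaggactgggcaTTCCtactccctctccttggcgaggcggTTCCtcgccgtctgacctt
SPRY2: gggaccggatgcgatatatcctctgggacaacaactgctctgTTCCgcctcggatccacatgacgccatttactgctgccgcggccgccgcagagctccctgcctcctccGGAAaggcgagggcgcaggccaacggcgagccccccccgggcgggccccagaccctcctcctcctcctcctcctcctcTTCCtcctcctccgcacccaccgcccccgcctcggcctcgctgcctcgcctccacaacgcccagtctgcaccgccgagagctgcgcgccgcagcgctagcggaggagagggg
SPRED2: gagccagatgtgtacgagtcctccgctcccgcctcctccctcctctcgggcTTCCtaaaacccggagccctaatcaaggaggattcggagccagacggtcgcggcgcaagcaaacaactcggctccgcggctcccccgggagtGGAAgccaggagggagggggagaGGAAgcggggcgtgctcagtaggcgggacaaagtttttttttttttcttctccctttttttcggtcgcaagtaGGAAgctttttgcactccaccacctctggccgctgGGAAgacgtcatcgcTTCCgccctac
ETV1: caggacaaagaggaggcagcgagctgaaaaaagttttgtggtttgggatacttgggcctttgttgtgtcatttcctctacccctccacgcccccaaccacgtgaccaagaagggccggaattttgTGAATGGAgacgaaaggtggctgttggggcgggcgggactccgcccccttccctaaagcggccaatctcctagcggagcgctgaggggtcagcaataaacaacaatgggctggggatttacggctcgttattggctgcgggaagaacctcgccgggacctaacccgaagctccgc

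Counting both strands, the ETS core occurred 5 times in the SPRY1 window, 4 times in that of SPRY4, 3 times in that of SPRY2, 6 times in that of SPRED2 and 4 times in that of ETV1. The core was present in 95.5% of all 35116 windows, with a median of 3, so its presence does not set these genes apart. The longer ETS site CCGGAAGT, held by 4.14% of all windows, was in none of the windows of the 7 members. TGAATGGA, held by 1.03% of all windows, occurred in the 5′-most of the 6 ETV1 windows, starting at -125 from the start site. That share is per window. Several motifs were searched in all windows of the members, so this match does not set ETV1 apart. TGAATGAA, the other CIC octamer searched, was in 1.65% of all windows and, among members, only in the downstream window of SPRED3. Of the Wnt-related TCF/LEF motifs, CTTTGAT (2.62% of all windows) was in no member's window, and CTTTGAA (4.43%) occurred 2 times in the third SPRY2 window. The AP-1 motif TGANTCA (7.71% of all windows) was in the downstream windows of SPRED2 and SPRED3, and the CRE TGACGTCA (1.85%) in none. These are matches of letters, and no binding was measured here.

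Library totals lay between 19454543 and 23036426 expected counts, so the 3 counts used as a detection floor correspond to at most 0.160 CPM (counts scaled to library size), far below every member. The cells were checked against fixed marker lists. POU5F1, a pluripotency factor, had 15430 to 15924 counts per NMP-L library against 23796 to 27360 in hESCs (log2 fold change -0.92). NANOG fell by 2.59 on the log2 scale, and SOX2, which both cell types express, had a log2 fold change of 0.06 (edgeR adjusted p = 0.53). T, the Brachyury gene of mesoderm, had 0, 0 and 2 counts in hESCs and 537, 293 and 629 in NMP-L cells, and CDX2, a posterior regulator, had 0, 1 and 0 against 522, 326 and 607. Of 7 tested NMP markers 6 were higher in NMP-L cells, all but SOX2. Markers near 0 counts in hESCs, such as T and CDX2, could pass the filter only through the NMP-L libraries. The 6 of 7 is therefore not an independent check of the cells. FGF8, also on the NMP list but too low to be tested, had 4, 11 and 7 counts in hESCs and 3, 2 and 1 in NMP-L cells. The summed TPM (a level scaled per transcript length) of the presomitic mesoderm list went from 12.7 to 15.6 in hESCs to 19.5 to 23.1 in NMP-L cells, with 2 of 4 tested genes higher (HES7, from 2, 0 and 0 to 50, 24 and 66 counts, and DLL1, 1.82-fold) and 1 lower (TBX6, 2.36-fold). MSGN1 and MEOX1 of that list were at 0 counts in hESCs and at most 7 in NMP-L cells. The endoderm list went from 2.33 to 3.55 up to 14.5 to 26.6 TPM, most of it FOXA2, with SOX17 at 1 count or 0 in every library. The neural crest and border list went from 25.0 to 29.6 down to 4.06 to 4.88 TPM, mostly through FOXD3 (21.4 ± 2.66 to 0.783 ± 0.122 TPM, SD, n = 3), with SOX10 also lower and SNAI2 5.05-fold higher. The neural progenitor list went from 157 to 170 down to 119 to 137 TPM, mostly through NES (160 ± 6.34 to 122 ± 8.97 TPM, SD, n = 3). SOX1 of that list rose, from 7, 13 and 4 to 284, 197 and 274 counts, and PAX6 had 1 count or 0 in each NMP-L library. The part of these lists in the results that follow was not tested. In bulk RNA, fewer cells that express a gene and less RNA per cell cannot be told apart.

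Of the 9 members, 6 differed between NMP-L cells and hESCs, with 2 higher (SPRED2 and ETV4) and 4 lower (SPRY1, SPRY4, ETV1 and ETV5). These calls come from edgeR's quasi-likelihood test with a Benjamini-Hochberg adjusted p under 0.05 over all genes. The same test called 55.8% of all tested genes, 29.1% higher and 26.7% lower, so 6 of 9 is near the background of a transition in which most genes moved. The same 6 members had no overlap between the libraries of the groups, as had 61.6% of all genes. The 4 that fell did so at least 2-fold in this fit, while 18.6% of all tested genes were called at that size in either direction. The median log2 fold change was -0.38 over the members and 0.03 over all tested genes, and the median size without sign was 0.87 against 0.40. SPRY2, SPRED1 and SPRED3 did not pass the threshold. The labels name biological replicates without saying that they were separate cultures. The p-values set each difference against the spread between these samples, which may be technical.

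**Figure D1:**
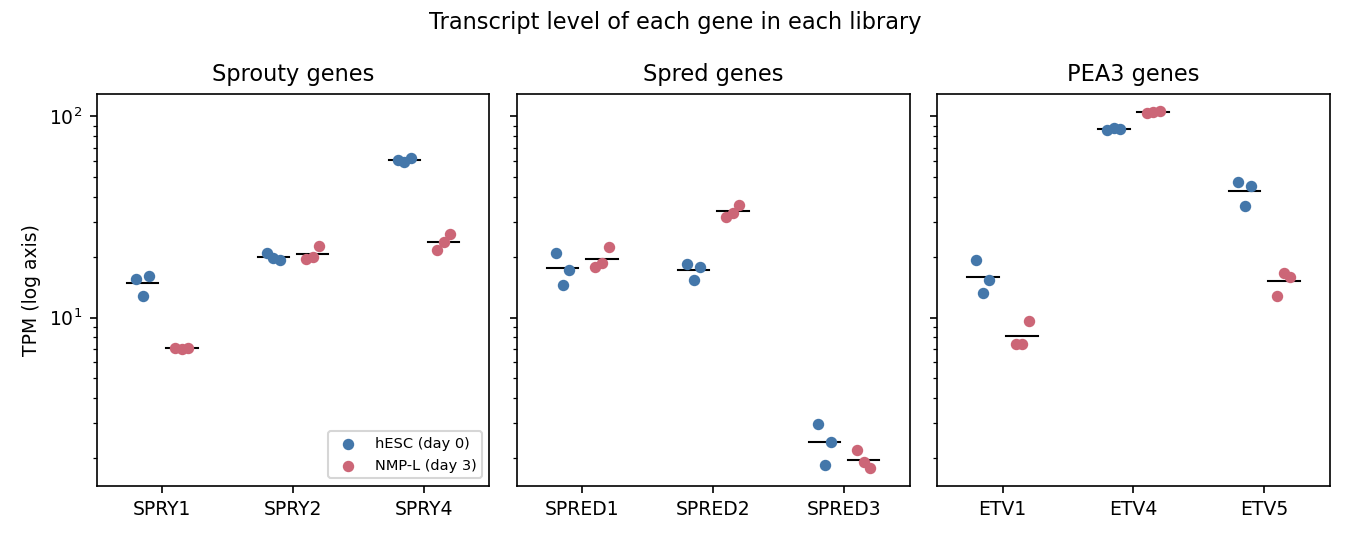
TPM of each member (log axis) in each of the 6 libraries, as points, with the mean of 3 libraries per group as a bar. SPRY1, SPRY4, ETV1 and ETV5 lie lower in every NMP-L library, SPRED2 and ETV4 higher, and the points of SPRY2, SPRED1 and SPRED3 overlap.

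Transcript levels per length, in TPM, set the members in an order that changed between the groups. In hESCs ETV4 was highest at 86.8 TPM (85.79 to 87.98 over 3 libraries), followed by SPRY4 at 60.8 ± 1.43 (SD, n = 3) and ETV5 at 42.6 ± 6.06. The next 5 genes, SPRY2, SPRED1, SPRED2, ETV1 and SPRY1, had means from 20.0 down to 14.8 TPM, and each overlapped its neighbour in that order. SPRED3 was lowest at 2.40 ± 0.55 TPM. In NMP-L cells ETV4 was again highest at 105 ± 0.977 TPM, and SPRED2 came second at 33.7 ± 2.44. SPRY4 (23.9 ± 2.19), SPRY2 (20.8 ± 1.72) and SPRED1 (19.6 ± 2.51) followed, and neighbours among these 3 overlapped. ETV5 (15.1 ± 2.04), ETV1 (8.13 ± 1.31), SPRY1 (7.03 ± 0.0289) and SPRED3 (1.97 ± 0.211) came below them without overlapping their neighbours. SPRY4 and ETV5 had therefore each moved down in the order, and SPRED2 had moved up from among the middle genes.

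Among the Sprouty genes, SPRY4 and SPRY1 fell and SPRY2 stayed within the spread between replicates. SPRY4 (GRCh37 chr5:141689992-141706020, minus strand) is the Sprouty gene with the most transcript in hESCs, and its protein inhibits RAS activation. Its normalised read counts were 145, 149 and 152 CPM in the hESC libraries and 50.7, 55.4 and 57.3 CPM in the NMP-L libraries. Every NMP-L library was thus well under every hESC library. The fall was 2.73-fold (log2 fold change -1.45, SE 0.08, adjusted p = 6.7e-08, edgeR). SPRY1 (chr4:124317950-124324915, plus strand) encodes a Sprouty protein with a known part in kidney development. SPRY1 gave 18.1, 15.5 and 19.1 CPM in hESCs and 7.86, 7.96 and 7.44 CPM in NMP-L cells. These groups did not overlap either, and the NMP-L libraries lay close together. SPRY1 fell 2.26-fold (log2 fold change -1.18, SE 0.12, adjusted p = 8.4e-06, edgeR).

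SPRY2 (chr13:80910111-80915261, minus strand) encodes the Sprouty protein best known for binding the ubiquitin ligase CBL. SPRY2 gave 22.7, 22.1 and 21.2 CPM in hESCs and 20.6, 21.0 and 22.3 CPM in NMP-L cells. The libraries of the groups were interleaved. The log2 fold change was -0.04 with a 95% confidence interval from -0.26 to 0.17 (edgeR adjusted p = 0.72), which leaves out changes of the size seen in SPRY4 and SPRY1. Its sign depended on the scaling, with 0.03 by library size only and 0.52 relative to GAPDH.

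The summed TPM of these 3 Sprouty genes, which leaves out SPRY3, went from 95.6 ± 2.99 in hESCs to 51.7 ± 3.87 in NMP-L cells (SD, n = 3). The ratio was 0.541, with no overlap between libraries. The exact permutation test gave p = 0.1 (two-sided), the smallest that 3 against 3 libraries allow. SPRY4 held 63.7% ± 1.24 of that sum in hESCs and 46.1% ± 0.996 in NMP-L cells. The share of SPRY2 went from 20.9% ± 1.06 to 40.2% ± 0.608. For both shares the groups did not overlap, and the exact two-sided permutation p was 0.1 (0.1125 adjusted over the 9 shares). SPRY1 held 15.5% ± 1.36 and 13.6% ± 0.994, and its libraries overlapped (exact permutation p = 0.2). The ratio of SPRY2 to SPRY4 TPM lay between 0.308 and 0.348 in hESCs and between 0.847 and 0.900 in NMP-L cells. SPRY4 remained the most abundant of the 3 genes on average, although SPRY2 came near it.

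**Figure D2:**
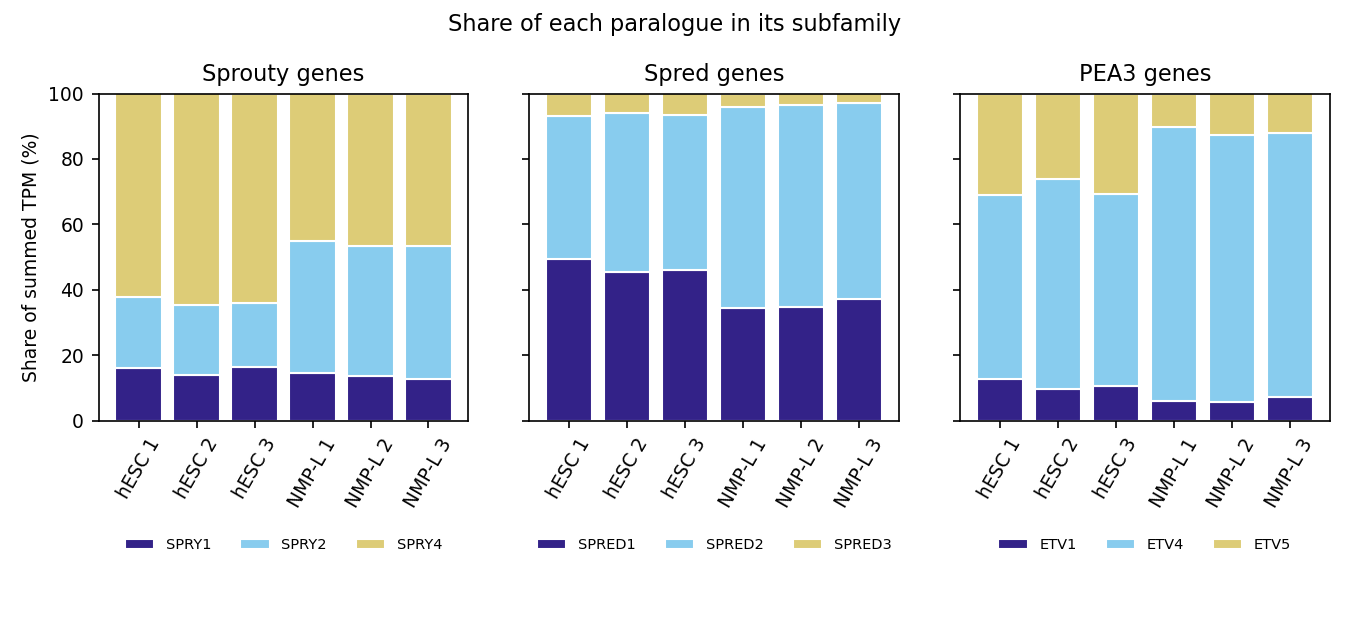
Share of each member in the summed TPM of the members of its subfamily (%, bars from 0 to 100) in each hESC and NMP-L library. SPRY3 is not among the members. The SPRY2, SPRED2 and ETV4 segments are taller in every NMP-L library than in every hESC library, with means of 40.2%, 61.0% and 81.9% against 20.9%, 46.6% and 59.8%.

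Among the Spred genes SPRED2 alone passed the threshold, and it was higher in NMP-L cells. SPRED2 (chr2:65537985-65659771, minus strand) encodes a membrane protein that inhibits RAS to ERK signalling. Its values were 39.7, 34.4 and 38.8 CPM in hESCs and 65.7, 69.4 and 70.9 CPM in NMP-L cells. All NMP-L libraries were above all hESC libraries. SPRED2 rose 1.83-fold (log2 fold change 0.87, SE 0.09, adjusted p = 9.6e-06, edgeR).

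SPRED1 (chr15:38545037-38649450, plus strand) is the gene mutated in Legius syndrome, and its protein binds neurofibromin. SPRED1 gave 74.2, 53.1 and 61.7 CPM in hESCs and 60.9, 64.0 and 72.7 CPM in NMP-L cells. The hESC libraries spanned the NMP-L ones. The log2 fold change of 0.06 had a 95% confidence interval from -0.20 to 0.33 (edgeR adjusted p = 0.67). It turned to -0.05 without hESC replicate 2, to -0.01 without NMP-L replicate 3 and to -0.23 relative to HPRT1, and was 0.63 relative to GAPDH.

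SPRED3 (chr19:38879061-38890227, plus strand) encodes the Spred protein with the weakest known effect on ERK. SPRED3 gave 7.26, 4.73 and 6.01 CPM in hESCs and 5.25, 4.53 and 4.01 CPM in NMP-L cells, so the groups overlapped. With 92 to 136 counts per library it was the member measured least precisely, and its log2 fold change of -0.38 (SE 0.18, 95% confidence interval from -0.78 to 0.02) had an edgeR adjusted p of 0.094. Without hESC replicate 2, the hESC library with the lowest value, the log2 fold change was -0.53 with an adjusted p of 0.029 by edgeR, and relative to GAPDH it was 0.16.

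The summed TPM of the Spred genes went from 37.2 ± 5.36 in hESCs to 55.3 ± 4.75 in NMP-L cells (SD, n = 3), a ratio of 1.49, opposite in sign to that of the Sprouty genes. The libraries did not overlap, and the exact permutation p was 0.1. In hESCs SPRED1 and SPRED2 held 47.0% ± 2.15 and 46.6% ± 2.67 of the sum, and these shares were indistinguishable within their spread. In NMP-L cells SPRED2 held 61.0% ± 0.934 and SPRED1 35.4% ± 1.46. SPRED3 went from 6.41% ± 0.56 to 3.59% ± 0.659. For these 3 shares the groups did not overlap, with an exact permutation p of 0.1 (0.1125 adjusted).

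The PEA3 genes went opposite ways, with ETV5 and ETV1 lower and ETV4 slightly higher in NMP-L cells. ETV5 (chr3:185764103-185828107, minus strand) encodes an FGF-responsive transcription factor also known as ERM. ETV5 gave 93.2, 73.5 and 90.4 CPM in hESCs and 24.6, 31.95 and 28.9 CPM in NMP-L cells. Even the lowest hESC library exceeded the highest NMP-L library by a wide margin. ETV5 fell 3.01-fold (log2 fold change -1.59, SE 0.12, adjusted p = 7.8e-07, edgeR), the largest change of the 9 members. ETV1 (chr7:13930854-14031050, minus strand), also known as ER81, gave 63.3, 45.3 and 51.5 CPM in hESCs and 23.4, 23.3 and 29.1 CPM in NMP-L cells. The groups did not overlap, although the hESC libraries were spread. ETV1 fell 2.11-fold (log2 fold change -1.08, SE 0.14, adjusted p = 4.2e-05, edgeR).

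ETV4 (chr17:41605212-41656988, minus strand) encodes the factor PEA3 after which the subfamily is named. ETV4 gave 86.8, 91.1 and 86.7 CPM in hESCs and 105, 107 and 99.6 CPM in NMP-L cells. The groups did not overlap, but the gap between them was small. The rise was 1.18-fold (log2 fold change 0.23, SE 0.08, adjusted p = 0.022, edgeR). Its call was lost without hESC replicate 1 (log2 fold change 0.20, adjusted p = 0.061), hESC replicate 3 (0.21, 0.10), NMP-L replicate 1 (0.23, 0.064) or NMP-L replicate 2 (0.22, 0.084), each refitted in edgeR, and relative to HPRT1 the log2 fold change was -0.07.

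The summed TPM of the PEA3 genes was 145 ± 7.72 in hESCs and 129 ± 3.78 in NMP-L cells (SD, n = 3), a ratio of 0.884 (exact permutation p = 0.1). In TPM this sum changed less than the composition within it. In CPM ETV4, the only PEA3 gene that did not fall, held 39.0% ± 3.97 of the hESC total. A sum in CPM therefore gives the falling genes more weight. ETV4 held 59.8% ± 4.02 of the PEA3 TPM in hESCs and 81.9% ± 1.67 in NMP-L cells. ETV5 went from 29.2% ± 2.73 to 11.8% ± 1.31 and ETV1 from 10.9% ± 1.55 to 6.32% ± 0.875. The groups did not overlap for any of these shares (exact permutation p = 0.1, 0.1125 adjusted). The ratio of ETV4 to ETV5 lay between 1.82 and 2.46 in hESCs and between 6.35 and 8.13 in NMP-L cells. ETV1 and ETV5 fell by unlike amounts, since their ratio went from between 0.342 and 0.409 to between 0.445 and 0.603.

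**Figure D3:**
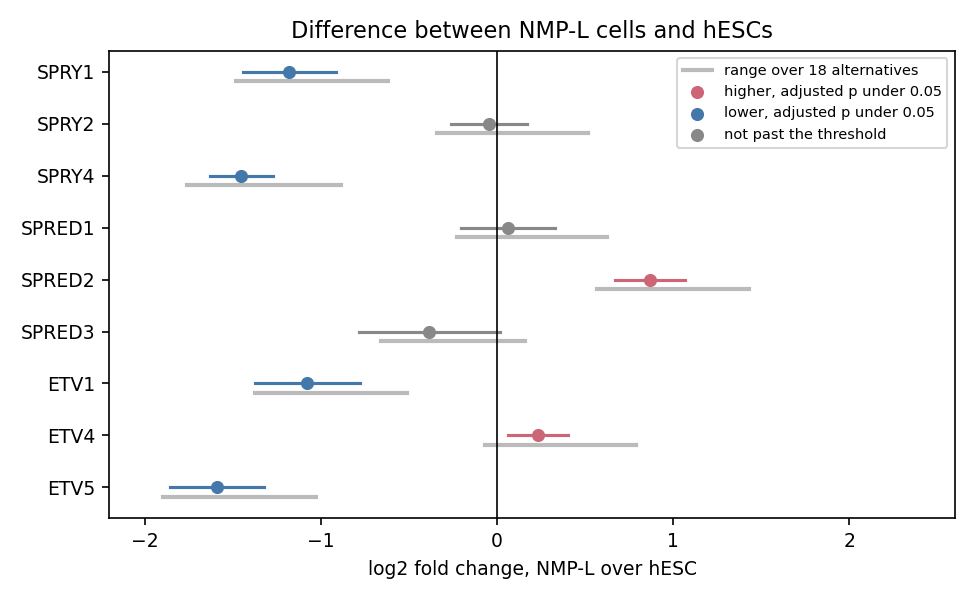
Log2 fold change of each member, NMP-L over hESC, as a point with its 95% confidence interval from edgeR, and below it as a grey bar the range over 18 alternative analyses. Points left of 0 are lower in NMP-L cells, and the grey bars of SPRY1, SPRY4, SPRED2, ETV1 and ETV5 stay on one side of 0 while those of SPRY2, SPRED1, SPRED3 and ETV4 cross it.

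The scaling of the libraries bears on the small differences. GAPDH, a common reference gene, was itself 1.47-fold lower in NMP-L cells (adjusted p = 0.00014, edgeR), and HPRT1 had a log2 fold change of 0.28 (adjusted p = 0.069, edgeR). Counts relative to GAPDH moved the median gene by 0.56 on the log2 scale, called 87.5% of changed genes higher, and gave 4 higher and 4 lower members. Counts relative to HPRT1 moved the median gene by -0.30, called 25.3% of changed genes higher, and gave 1 higher and 5 lower members. SPRY1, SPRY4, ETV1 and ETV5 stayed lower and SPRED2 stayed higher, past the threshold, under both. TPM values are not scaled by TMM. With limma on log2(TPM + 1) the median gene moved by 0.094 on the log2 scale, which bears on the summed TPM of each subfamily.

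Some members share ground with other transcripts. On GRCh37, SPRY4 overlaps the antisense gene SPRY4-AS1, ETV5 overlaps ETV5-AS1 on the opposite strand and DGKG on its own, ETV4 overlaps DHX8 on the opposite strand, and SPRED2 overlaps the gene ENSG00000232693 on its own strand. Whether counting used strand is not given in the sources used here, so reads from such pairs may not be separated. SPRY4-AS1 had at most 7 counts in any library. SPRY4-IT1, a non-coding transcript inside the span of SPRY4, had 11, 11 and 16 counts in hESCs and 4, 0 and 9 in NMP-L cells (log2 fold change -1.75, SE 0.60, adjusted p = 0.027, edgeR). SPRY4-IT1 could pass the filter only through the hESC libraries, where it is higher, so its p-value adds little. Against 2719 to 2918 counts of SPRY4 in the hESC libraries these are few reads. SPRY3, the Sprouty paralogue outside the 9 genes, fell from 10.2 ± 1.29 to 6.52 ± 0.818 CPM (SD, n = 3).

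The list of FGF and FGF receptor genes was tested in 15 of 25 cases, and all 15 differed, 5 higher and 10 lower, where 55.8% of all tested genes did. Of these, 4 encode intracellular FGFs, which are not ligands of the receptors (2 higher and 2 lower). The other 11, secreted FGFs and receptors, were 3 higher and 8 lower. FGF4, the FGF ligand of the pluripotent epiblast, had 84, 97 and 110 counts in hESCs and 5, 5 and 8 in NMP-L cells (log2 fold change -4.21, SE 0.26, adjusted p = 1.5e-07, edgeR). FGF17, a ligand of the FGF8 subfamily, had 100, 80 and 118 against 18, 8 and 21 counts (log2 fold change -2.89). FGF1 had 16, 19 and 19 against 5, 6 and 0 counts (log2 fold change -2.47), and FGF14, an intracellular FGF, had 6, 7 and 6 against 17, 21 and 32 (log2 fold change 1.63). All 4 genes had low counts in at least one group. Genes this low can pass the filter only through the group where they are high, so their calls add little to the count of 15. The number of this list that differed was 11 with at least 10 counts required in every library. That setting leaves FGF1, FGF4, FGF14 and FGF17 untested, and no other call of the list was lost. The number was 12 relative to GAPDH or to HPRT1. It was 13 with DESeq2 and 18 with no filter beyond 1 count in total, which tests more genes of the list. FGFR1 to FGFR4, named here after their values were seen, had log2 fold changes between -0.44 and 0.23. FGFR1 went from 337 ± 23.8 to 397 ± 42.1 CPM (log2 fold change 0.23, adjusted p = 0.044, edgeR).

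Between receptor and ERK, 9 of 20 adaptor and kinase genes differed, 7 higher and 2 lower, and none by 2-fold. Of all tested genes 55.8% differed. HRAS, a RAS gene, went from 12.4 ± 0.72 to 22.8 ± 1.07 CPM (SD, n = 3, log2 fold change 0.88). BRAF and the adaptor SHC1 had log2 fold changes of 0.65 and 0.58, and the scaffold KSR1 one of -0.40. The number that differed was 4 without hESC replicate 3 and 5 without NMP-L replicate 2. Relative to GAPDH it was 18, and relative to HPRT1 it was 4.

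The readouts of the ERK cascade outside the 9 genes also went both ways, with 7 of 13 higher and 2 lower. Of all tested genes 55.8% differed. DUSP6, a phosphatase that removes the activating phosphates of ERK, had 20, 24 and 10 counts in hESCs and 992, 815 and 1338 in NMP-L cells. This was a 49.0-fold rise (log2 fold change 5.62, SE 0.23, adjusted p = 5.9e-09, edgeR), in the same libraries in which SPRY4 and ETV5 fell. FLRT3, a membrane protein co-expressed with FGFs, had 6, 9 and 3 against 93, 48 and 107 counts (log2 fold change 3.52), and EPHA4, an ephrin receptor, rose by 1.41 on the log2 scale. FLRT3 could pass the filter only through the NMP-L libraries, so its call adds little to the count. With at least 10 counts required in every library, which leaves out FLRT3, 8 genes of the list differed. EGR1, an immediate early transcription factor, went from 47.0 ± 3.05 to 17.9 ± 0.272 CPM (SD, n = 3, log2 fold change -1.39). The median over the 13 genes was 0.48, against -0.38 over the 9 members and 0.03 over all tested genes.

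**Figure D4:**
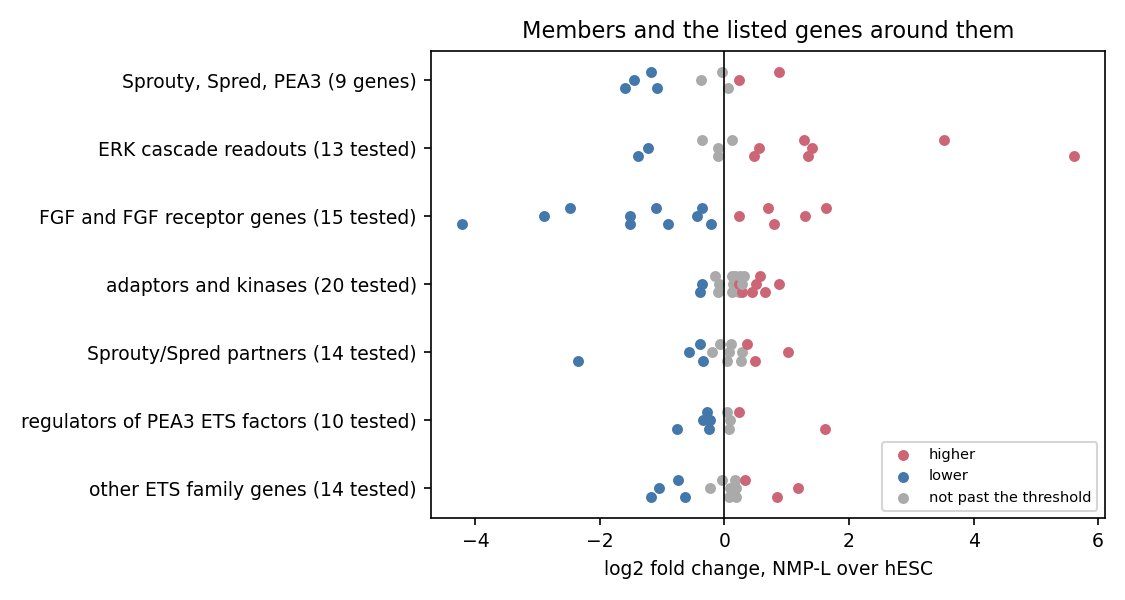
Log2 fold change, NMP-L over hESC, of each tested gene of the 9 members and of 6 fixed lists around them, 1 point per gene, spread vertically for legibility. Most tested FGF and FGF receptor genes lie left of 0 and most ERK cascade readouts right of it, while the members lie on both sides.

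Among 14 partners and regulators of Sprouty and Spred proteins, 3 were higher and 4 lower, which is near the 55.8% of all tested genes. CAV1, whose protein caveolin-1 binds Sprouty proteins, went from 11.9 ± 1.28 to 2.33 ± 0.176 CPM (SD, n = 3), a 5.10-fold fall (adjusted p = 1.6e-07, edgeR). NEDD4, a ubiquitin ligase of Sprouty proteins, rose 2.03-fold, NF1, the neurofibromin gene, had a log2 fold change of 0.49, and the kinase gene MKNK1 one of -0.58. Relative to GAPDH 11 of the 14 differed.

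Among 10 regulators of PEA3 factors found in the table, 2 were higher and 5 lower, where 55.8% of all tested genes differed. CIC, the repressor of the PEA3 genes, gave 52.6, 54.2 and 62.1 CPM in hESCs and 39.5, 29.6 and 30.6 CPM in NMP-L cells, and its log2 fold change was -0.76 (SE 0.12, adjusted p = 0.00026, edgeR). ATXN1, whose protein binds CIC, rose 3.05-fold, from 5.76 ± 1.58 to 17.5 ± 2.05 CPM (SD, n = 3). FBXW7, a ubiquitin ligase subunit, and ERF, an ETS repressor, had log2 fold changes of -0.34 and -0.29. The number that differed, 7, was 3 without hESC replicate 3, 3 without NMP-L replicate 2 and 4 without NMP-L replicate 3.

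The other ETS genes were tested in 14 of 23 cases, with 3 higher and 4 lower, also near the 55.8% of all tested genes. ETS1 went from 28.7 ± 1.51 to 12.7 ± 0.434 CPM (SD, n = 3, log2 fold change -1.18), and SPIB had a log2 fold change of -1.05. ELF4 had one of 0.85 and ERG, at 6 to 12 counts in hESCs, one of 1.18. ERG could not have passed the filter without the NMP-L libraries, where it is higher, so its call adds little. The number that differed, 7, was 4 without hESC replicate 3 and 4 without NMP-L replicate 3.

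The genes with the profile nearest to each member were found by Euclidean distance over the 6 libraries, on log2(CPM + 0.1) values centred per gene, among 15508 other tested genes. The nearest to ETV5 was PURG (distance 0.208), to SPRY4 it was SPATS2L (0.139), and to SPRY1 and ETV1 they were TSPEAR-AS2 (0.129) and PNRC1 (0.086). For SPRED2 it was SQLE (0.074), for ETV4 PITPNA (0.032), for SPRED3 NEURL1 (0.170), for SPRY2 NRDC (0.051) and for SPRED1 SLAIN2 (0.039). Among the members themselves, SPRY4 and ETV5 were nearest to each other (0.369), as were SPRY1 and ETV1 (0.438) and SPRY2 and SPRED1 (0.364). In each of these pairs many other genes lay nearer. For ETV5 36 genes were nearer than SPRY4, for SPRY4 130 were nearer than ETV5, and for ETV1 165 were nearer than SPRY1. These distances describe 6 libraries in 2 groups, in which most of any distance is the difference between the groups.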

How the data were processed

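Libraries of polyadenylated RNA from 3 hESC and 3 NMP-L replicates were read from a single end, with a read length of 76 bp. The submitters' processing notes name cutadapt 1.9.1, STAR 2.5.2a, RSEM 1.3.0, DESeq2 1.12.3 and hg19; the annotation and the strand setting are not given in the sources used here. The authors deposited RSEM expected counts, which are not normalised between libraries, and TPM values, scaled per transcript length to a fixed total. Of the per-sample columns 0 were left unused. The paper's Methods give other medium for hESCs (TESR on Geltrex) than the labels used here, and add BMP and TGFβ inhibitors from day 2 to day 4 on the way to neural progenitors, which the NMP-L labels do not name.

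Expected counts were rounded and tested in R 4.3.3 with edgeR 4.0.16 (filterByExpr with a minimum count of 10, TMM, glmQLFit and glmQLFTest, Benjamini-Hochberg adjustment, threshold 0.05). The SE is the size of the log2 fold change divided by the square root of F. CPM values are scaled by TMM, and exact permutation tests, all two-sided, used log2(CPM + 0.1) or TPM shares, sums and log2 ratios. DESeq2 1.42.0 and limma 3.58.1 on log2(TPM + 1) or log2(TPM + 0.1) served as alternatives, with other scalings and filters, a replicate block, thinning to the smallest total and each library left out. The code was tested on simulated data. Replicates of a group differed by more than sampling noise (chi-square per degree of freedom from 6.59 to 17.7). Motifs were searched in Python 3.11.15 and plots drawn with matplotlib 3.10.9.

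The members, lists and tests were chosen with earlier results of these data known. Named are all members, up to 4 genes per list past the threshold without overlap between groups, by size, the nearest gene to each member, POU5F1, NANOG, T, SOX2, CDX2, GAPDH and HPRT1. FGF8, the other marker genes given with values, FGFR1 to FGFR4 and SPRY4-AS1 were named after their values were seen. Gene positions come from GENCODE release 44 lifted to GRCh37. COP1 was found under its older symbol RFWD2.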

Additional observations from a re-analysis of the deposited data

How the results depend on the processing

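Values given for single genes are log2 fold changes of NMP-L over hESC. SPRY1, SPRY4, SPRED2, ETV1 and ETV5 kept direction and call under all 18 alternatives. The falls were not 2-fold in all of them. Relative to GAPDH SPRY1, SPRY4 and ETV1 were -0.62, -0.89 and -0.51, and relative to HPRT1 they were -1.48, -1.76 and -1.37. With limma on log2(TPM + 1) SPRY1 and ETV1 were -0.97 and -0.89, and ETV1 was -0.96 without hESC replicate 1. ETV4 lost its call with upper-quartile factors (0.20, adjusted p = 0.052, edgeR) and with the replicate block (0.23, adjusted p = 0.092, edgeR), turned to -0.065 relative to HPRT1, and lay between 0.20 and 0.27 with 1 library left out. SPRY2 was 0.031 by library size only, 0.52 relative to GAPDH (past the threshold there, adjusted p = 0.0077, edgeR), 0.055 with limma on log2(TPM + 1) and 0.057 on log2(TPM + 0.1). SPRED1 was 0.63 relative to GAPDH (past the threshold, adjusted p = 0.012, edgeR), -0.23 relative to HPRT1 and between -0.046 and 0.175 with 1 library left out. SPRED3 was 0.16 relative to GAPDH, -0.66 relative to HPRT1 (past the threshold, adjusted p = 0.022, edgeR) and between -0.53 and -0.25 with 1 library left out, past the threshold without hESC replicate 2 (adjusted p = 0.029, edgeR). The number of higher members was 1 with upper-quartile factors, HPRT1 or the replicate block, 4 with GAPDH, and 1 to 2 with 1 library left out. Relative to GAPDH 18 adaptor and kinase genes, 11 partners of Sprouty and Spred and 12 other ETS genes differed, and relative to HPRT1 4 adaptor and kinase genes. Of the PEA3 regulators 4 differed by library size only, 3 with the replicate block and 3 with either limma test. With 1 library left out, 4 to 12 adaptor and kinase genes, 3 to 7 PEA3 regulators and 4 to 8 other ETS genes differed. In CPM in place of TPM, the shares of SPRY1, SPRY2, SPRY4, ETV1 and ETV4 changed by 0.00, 13.86, -13.86, -7.32 and 26.88 percentage points, against -1.80, 19.34, -17.53, -4.61 and 22.09 in TPM. Deviations of like-numbered replicates from their group means were not positively correlated (-0.37, -0.06 and -0.13). Unlike numbers were not compared, so these values cannot settle whether the numbers pair the samples. The block called 7560 genes against 8653 and changed no member's call but that of ETV4. Leaving out hESC replicate 3 called 7255 genes. The number of libraries, 3 per group, and the low counts of SPRED3 limit the precision.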
